A study of Homo sapiens with 24 samples.

Results

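The genes described here are 8 that encode tumour necrosis factor (TNF) receptors and the machinery of necroptosis, a lytic form of programmed cell death. They are the receptors TNFRSF1A and TNFRSF1B, the adaptors TRADD and FADD, the kinases RIPK1 and RIPK3, the executor MLKL and the nucleic acid sensor ZBP1. They were chosen by gene name from a table of 60623 genes, in which each of the 8 names occurred in 1 line. Measured values played no part in that rule.

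The cells were HT-29, an epithelial line from a human colon cancer, either wild-type (WT) or with GPRC5A knocked out (KO). GPRC5A encodes an orphan G protein-coupled receptor. Poly(A)-selected RNA was sequenced from 24 libraries, 3 in each of 8 groups. The labels do not say whether the libraries of a group came from separate cultures, so a p-value here reflects only how far these libraries spread, which may be technical.

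Each genotype had 4 treatments of 8 h. The DMSO groups were kept in medium with 0.1% DMSO. The 7FTA groups received 50 µM 7-fluorotryptamine (7FTA), the TNFα groups received 10 ng/mL TNFα, and the last groups received both agents at those doses. A DMSO content is stated for the DMSO groups only, so vehicle and treatment cannot be told apart in comparisons with them. The labels name no clone, guide or deleted segment for the KO cells, so a difference between KO and WT cells and a difference between 2 lines of cells cannot be told apart.

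As background, TNF bound to its receptor TNFR1, the product of TNFRSF1A, recruits TRADD and RIPK1 into a membrane complex (complex I) that drives NF-κB signalling. When ubiquitin marks or caspase-8 activity are lost, RIPK1, FADD and caspase-8 form cytosolic complexes in which RIPK1 can activate RIPK3, and RIPK3 phosphorylates MLKL, which then permeabilises the plasma membrane. ZBP1 is an interferon-inducible sensor of Z-form nucleic acids that reaches RIPK3 without a TNF receptor. HT-29 cells are a common model of TNF-driven necroptosis, which in them is usually provoked with a caspase inhibitor and a SMAC mimetic, agents that the labels here do not list.

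The 24 libraries held 16782857 to 27247407 counted reads, of which 0.569% to 1.15% were mitochondrial. Levels are in CPM, the reads of a gene as a rate over the TMM-scaled total of its library. The TMM factors were 0.944 to 0.996 in WT and 1.00 to 1.05 in KO libraries, so small genotype differences in CPM depend on this scaling. With DMSO, GPRC5A was at 207 CPM in WT cells (SD 5.84, n = 3) and at 69.8 CPM in KO cells (SD 2.26, n = 3). It was thus reduced and not absent at the transcript level, and in the other treatments it stood at 212 to 245 CPM in WT and 67.0 to 77.9 CPM in KO cells. All 8 epithelial markers were detected, from CDX2 (13 to 87 reads a library) to KRT8. Their summed level was 18053 to 20636 CPM in WT and 15176 to 17172 CPM in KO libraries, and its part in the genotype differences below was not tested. Of the leukocyte markers PTPRC had at most 4 reads in a library and CD3E had 1 read in all 24. The summed level of the 6 leukocyte markers was 5.05 to 8.92 CPM without TNFα and 10.5 to 13.7 CPM with it. Most of that sum was CD14 (1.94 to 8.49 CPM over the libraries) and ITGAM (0.0519 to 10.3 CPM), the 2 that passed the filter on low counts. In each of the 4 TNFα comparisons 1 of these 2 was called higher and 1 lower, so they did not share the rise. The part of the summed level in the TNFα changes below was not tested. Of the fibroblast markers COL1A2 had 0 reads and COL1A1 had 7 to 22 reads a library. Of the endothelial markers CDH5 had 0 reads and PECAM1 had 7 to 34 reads a library.

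The members spanned more than 3 orders of magnitude in level per transcript length. On the RPKM scale (CPM per kilobase of exon) the means in WT cells with DMSO were 48.7 for FADD, 24.6 for TNFRSF1A, 12.1 for RIPK1, 6.56 for MLKL, 3.60 for TRADD and 0.839 for RIPK3. TNFRSF1B followed at 0.0855 RPKM and ZBP1 at 0.0114 RPKM. The order FADD, TNFRSF1A, RIPK1, MLKL, TRADD, RIPK3 was the same in 8 of 8 groups, and in each group the libraries of neighbouring genes in that order did not overlap. TNFRSF1B and ZBP1 lay below RIPK3 in each group, and their own order was not the same everywhere: in KO cells with TNFα, ZBP1 (0.180 RPKM) was above TNFRSF1B (0.0782 RPKM).

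7 of the 8 members were among the 14059 genes that passed the filter on low counts and were tested. TNFRSF1B did not pass. ZBP1 passed only through its level in the KO libraries with TNFα, so that its passing already required that group to be high. Across group means the log2 span from the lowest to the highest group was 3.98 for ZBP1, 0.62 for TRADD, 0.40 for TNFRSF1A, 0.23 for MLKL, 0.21 for RIPK1 and 0.14 for FADD, while RIPK3 came between ZBP1 and TRADD.

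**Figure D1:**
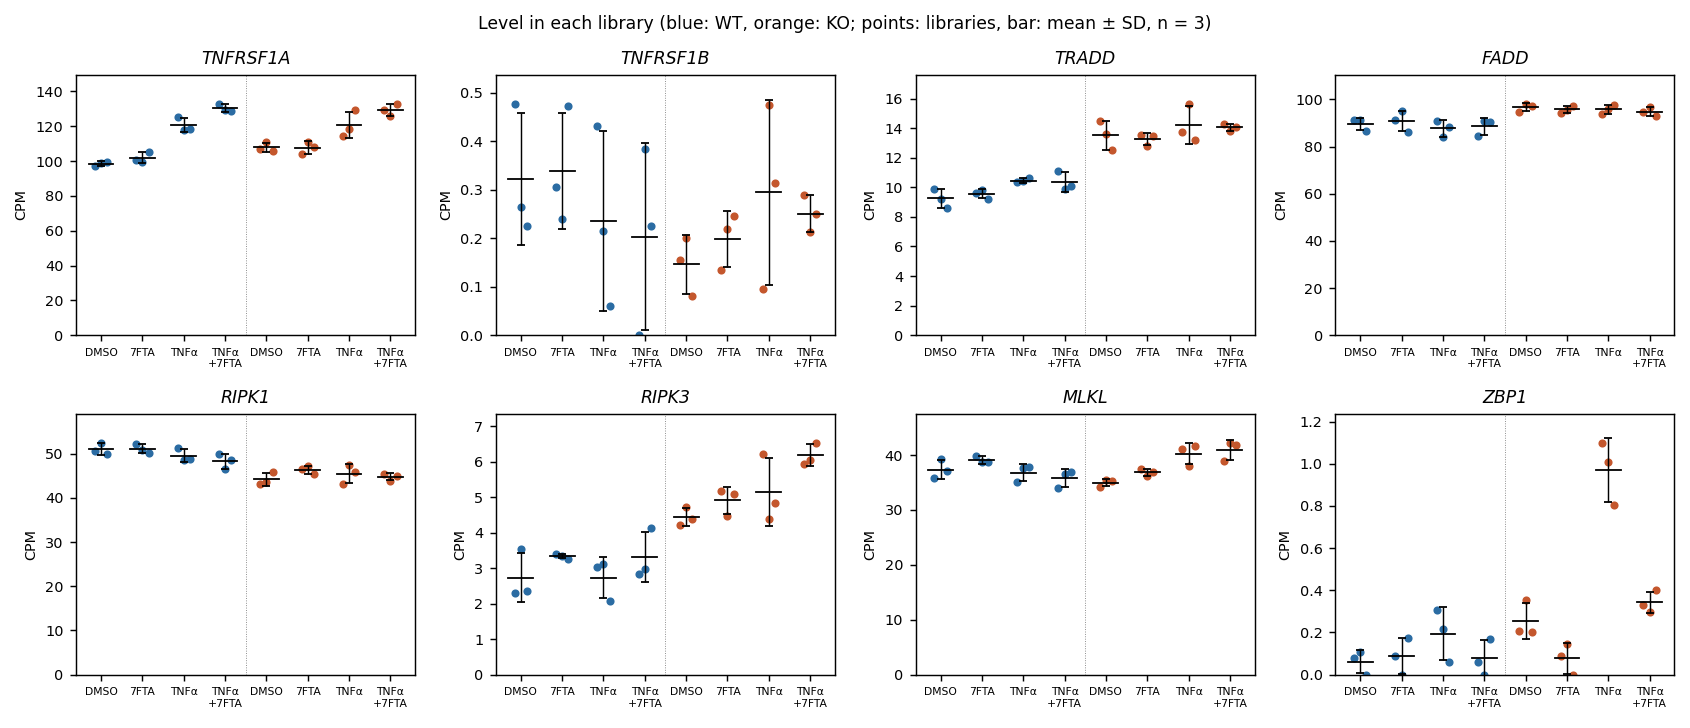
Level of each of the 8 genes in CPM (vertical axis, linear, from 0) by treatment (horizontal axis), with WT libraries in blue and KO libraries in orange. Points are libraries and bars are the mean ± SD of 3. TRADD and RIPK3 show a step between genotypes, TNFRSF1A a step with TNFα, and ZBP1 a peak of 0.805 to 1.10 CPM in KO cells with TNFα.

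TRADD and RIPK3 were higher in KO than in WT cells under each of the 4 treatments. ZBP1 had larger differences in 3 of them, on few reads. With edgeR's quasi-likelihood test and Benjamini-Hochberg adjustment over all tested genes (adjusted p under 0.05), 6 of the 7 tested members were called with DMSO, 3 with 7FTA, 6 with TNFα and 5 with both agents, ZBP1 among them in each treatment but 7FTA. Its call with TNFα is no support for the count, since that KO group decided that it was tested. The share of all tested genes called in the same comparisons was 48.1%, 49.5%, 50.6% and 51.9%, so a call for genotype was common and the members' counts have to be read against that. Libraries of the compared groups did not overlap for 54.4% of tested genes with DMSO, 57.8% with 7FTA, 56.6% with TNFα and 55.2% with both. Calls in the same direction under all 4 treatments were rarer: 15.9% of tested genes were higher in KO cells in all 4 and 17% were lower. TRADD and RIPK3 were the members in the first of these classes, and no member was in the other.

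**Figure D2:**
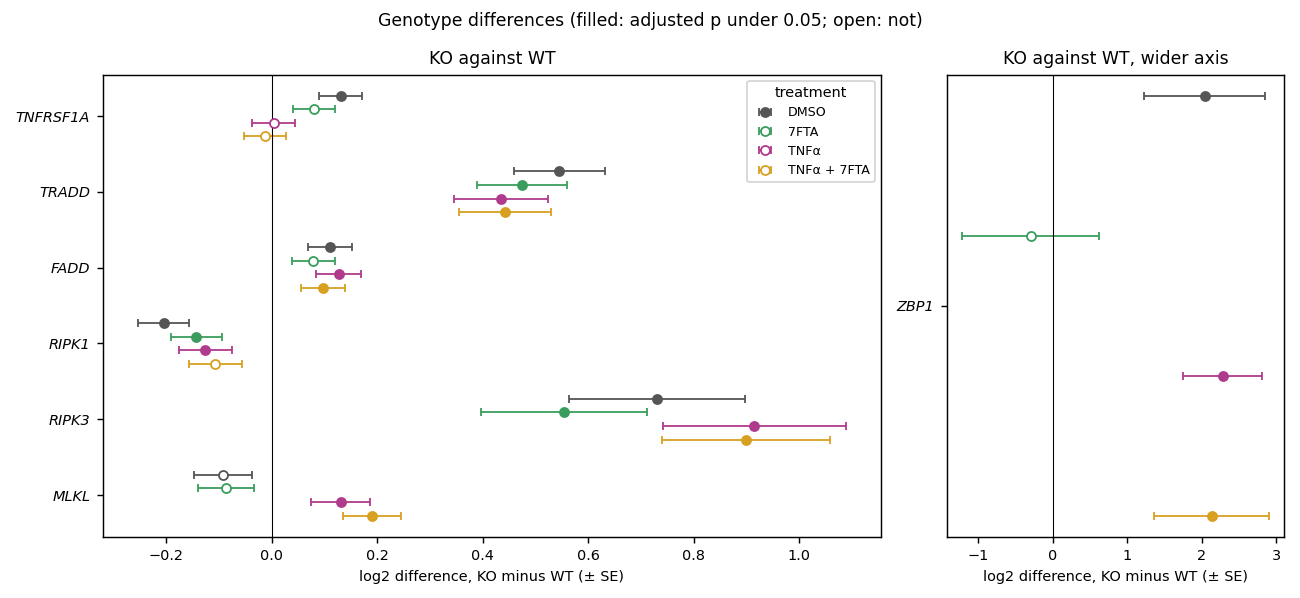
Difference between KO and WT cells (horizontal axis, log2, KO minus WT, ± SE) for the 7 tested members under each treatment, with ZBP1 on a wider axis. Filled points have an adjusted p under 0.05 and open points do not. TRADD and RIPK3 are to the right of 0 with filled points in all 4 treatments, and RIPK1 is to the left of 0. The filled ZBP1 point with TNFα rests on the group that carried ZBP1 through the filter.

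TNFRSF1A (ENSG00000067182, GRCh38 chromosome 12, 6328757 to 6342114, minus strand) encodes TNFR1, the receptor with a death domain. It is the member that moved with TNFα in both genotypes. In WT cells its 3 libraries were at 97.0, 99.1 and 99.7 CPM with DMSO and at 125, 118 and 119 CPM with TNFα. In KO cells they were at 107, 111 and 106 CPM with DMSO and at 115, 119 and 129 CPM with TNFα. The TNFα libraries were above the DMSO libraries without overlap in both genotypes. The log2 change was 0.29 ± 0.04 (SE) in the WT cells (adjusted p = 8.45e-08) and 0.16 ± 0.04 in the KO cells (adjusted p = 0.00125), or 1.22-fold and 1.12-fold. Without KO TNFα replicate 3, its highest library, the change in KO cells was 0.11 and the adjusted p 0.05003, just over the threshold.

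In the presence of 7FTA the rise with TNFα was again seen in both genotypes. WT libraries went from 101, 99.5 and 105 CPM with 7FTA to 133, 129 and 129 CPM with both agents, a log2 change of 0.35 ± 0.04 (adjusted p = 7.19e-10). KO libraries went from 104, 111 and 108 CPM to 129, 126 and 133 CPM, a log2 change of 0.26 ± 0.04 (adjusted p = 5.82e-07). The groups did not overlap in either case. A call in the same upward direction in all 4 TNFα comparisons was found for 9.3% of tested genes, and TNFRSF1A is the 1 member among them.

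With DMSO, TNFRSF1A was higher in KO cells by 0.13 ± 0.04 on the log2 scale (adjusted p = 0.00658), with no overlap between the libraries. With TNFα the difference was 0.00 ± 0.04 (adjusted p = 0.947), with a 95% interval of -0.08 to 0.09. The difference between the TNFα changes of KO and WT cells was -0.13 ± 0.06 (adjusted p = 0.282), so a genotype-dependent TNFα change was not shown.

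The promoter of TNFRSF1A is printed because the gene rose with TNFα in all 4 comparisons. It comes from RefSeq's GRCh38.p14 table, minus strand, and the bases shown are those before the start of transcription that lie outside any annotated exon. 3 motifs were searched on both strands in the 250 bases before each start: an NF-κB site written GGGNNNTTCC, the core of an interferon-stimulated response element (ISRE) written GAAANNGAAA and the core of an aryl hydrocarbon receptor site written GCGTG. None of these letters is in the TNFRSF1A window, so no base is in capitals.
TNFRSF1A, chr12:6342115-6342326: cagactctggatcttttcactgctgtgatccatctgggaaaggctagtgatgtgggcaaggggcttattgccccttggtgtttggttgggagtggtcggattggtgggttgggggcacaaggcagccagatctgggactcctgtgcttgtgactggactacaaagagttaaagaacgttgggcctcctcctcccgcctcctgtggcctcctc

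Among 35116 promoter windows of the same length, 5.67% hold the NF-κB letters, 3.02% the ISRE core and 32.2% the aryl hydrocarbon receptor core. 5 of the 8 members have an entry in the RefSeq table, with 7 starts between them, and TRADD, RIPK3 and ZBP1 are named only. A match is a stretch of letters and not a shown binding site.

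TNFRSF1B (ENSG00000028137, chromosome 1, 12167003 to 12209228, plus strand) encodes TNFR2, which lacks a death domain and is best known from immune cells. Its counts were too low for the filter. The 24 libraries held 0 to 12 reads each and 128 in all, and 1 library, of WT cells with both agents, held 0. Group sums ranged from 9 reads in KO cells with DMSO to 23 reads in WT cells with DMSO. That pair gave a KO to WT ratio of 0.435 with a 95% counting interval of 0.177 to 0.975, which covers counting error only. Without the filter edgeR gave an adjusted p of 0.241 for it, and the libraries of the other groups, with 12 to 22 reads a group, overlapped widely. A difference in TNFRSF1B was not detectable at this depth. Its promoter window holds the ISRE core in the 10 bases next to the start and the aryl hydrocarbon receptor core at 2 places.

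TRADD (ENSG00000102871, chromosome 16, 67154180 to 67160298, minus strand) encodes the adaptor that binds the death domain of TNFR1 and brings TRAF2 and RIPK1 to it. It was higher in KO cells under each treatment. With DMSO the WT libraries were at 9.91, 9.23 and 8.60 CPM and the KO libraries at 14.5, 13.6 and 12.5 CPM. With 7FTA they were at 9.63, 9.82 and 9.23 CPM against 13.5, 12.8 and 13.5 CPM. Under both treatments each KO library was above each WT library.

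The same separation of TRADD was measured with TNFα present. With TNFα the WT libraries were at 10.3, 10.4 and 10.6 CPM and the KO libraries at 13.8, 15.7 and 13.2 CPM. With both agents they were at 11.1, 9.92 and 10.1 CPM against 14.3, 13.8 and 14.1 CPM. All 12 KO libraries (12.5 to 15.7 CPM) were above all 12 WT libraries (8.60 to 11.1 CPM), which was the case for 7.77% of tested genes.

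The log2 difference of TRADD between KO and WT cells was 0.55 ± 0.09 (SE) with DMSO (adjusted p = 5.95e-07) and 0.47 ± 0.08 with 7FTA (adjusted p = 6.93e-06). It was 0.44 ± 0.09 with TNFα (adjusted p = 5.26e-05) and 0.44 ± 0.09 with both agents (adjusted p = 2.79e-05). These are 1.46-, 1.39-, 1.35- and 1.36-fold. TRADD was not called in any comparison of TNFα or 7FTA, and no interaction was called for it. In WT cells the 3 TNFα libraries were above the 3 DMSO libraries, but the log2 change of 0.18 ± 0.09 did not pass (adjusted p = 0.127). The 24 tested genes nearest to TRADD on chromosome 16 had a median KO minus WT difference of 0.07 to 0.12 (log2) over the 4 treatments. TRADD shares 4.91% of its exonic bases with FBXL8 on the opposite strand, a gene at a mean of 1.27 CPM, and the sources used here do not give the strand setting of the counting.

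FADD (ENSG00000168040, chromosome 11, 70203163 to 70207390, plus strand) encodes the adaptor that links death domains to caspase-8. It varied least of the 7 tested members. WT libraries were at 84.1 to 94.9 CPM (median 90.6, n = 12) and KO libraries at 92.9 to 98.3 CPM (median 95.8, n = 12), and these ranges overlap. With DMSO the WT libraries were at 91.2, 91.2 and 86.8 CPM and the KO libraries at 94.9, 98.3 and 97.2 CPM, without overlap.

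FADD was called higher in KO cells with DMSO (log2 0.11 ± 0.04, adjusted p = 0.0233), with TNFα (0.13 ± 0.04, adjusted p = 0.0108) and with both agents (0.10 ± 0.04, adjusted p = 0.0484). With 7FTA the difference was 0.08 ± 0.04 and did not pass (adjusted p = 0.108). These are differences of 1.06- to 1.09-fold. The 24 tested genes nearest to FADD on chromosome 11 had a median KO minus WT difference (log2) of 0.01 with DMSO and 0.13 with 7FTA. It was 0.16 with TNFα and 0.09 with both agents, so FADD stood above this median with DMSO only, or barely so. The part of the region in FADD's differences was not tested. The calls depended on single libraries. With DMSO the adjusted p was 0.129 without WT replicate 3, 0.0796 without KO replicate 2 and 0.0604 without KO replicate 3, and with TNFα it was 0.101 without WT replicate 2 and 0.0522 without KO replicate 3. The call with both agents was lost in 7 of 11 alternatives, among them DESeq2 and leaving out WT replicate 1 (0.207), KO replicate 1 (0.0876) or KO replicate 2 (0.143). No TNFα or 7FTA change of FADD was called. The gene shares 54.9% of its exonic bases with the antisense gene AP000879.1, which is listed at a mean of 0.147 CPM, and without a stated strand setting reads of the pair cannot be told apart. The FADD promoter window holds none of the 3 motifs.

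RIPK1 (ENSG00000137275, chromosome 6, 3063991 to 3115187, plus strand) encodes the kinase that acts in complex I as a scaffold and in the death complexes through its kinase activity. It is the only member called lower in KO cells. With DMSO its WT libraries were at 50.6, 52.5 and 50.0 CPM and its KO libraries at 43.1, 43.6 and 45.8 CPM. With TNFα they were at 51.3, 48.7 and 48.7 CPM against 43.2, 47.4 and 45.8 CPM. The KO libraries were below the WT libraries without overlap in all 4 treatments, though over all treatments the ranges met, with KO libraries at 43.1 to 47.4 CPM and WT libraries at 46.5 to 52.5 CPM. In a single treatment, libraries did not overlap for 54.4% to 57.8% of tested genes. The share of genes without overlap in each of the 4 was not computed.

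The log2 difference of RIPK1 was -0.20 ± 0.05 with DMSO (adjusted p = 0.000432), -0.14 ± 0.05 with 7FTA (adjusted p = 0.0112) and -0.13 ± 0.05 with TNFα (adjusted p = 0.0331). With both agents it was -0.11 ± 0.05 and did not pass (adjusted p = 0.067). The call with TNFα was lost in 5 of 11 alternatives, 3 of which left out 1 library: WT replicate 1 (adjusted p = 0.134), KO replicate 1 (0.189) or KO replicate 3 (0.0524). The call with 7FTA held in 8 of 11 alternatives. It was lost without the filter on low counts and on leaving out WT replicate 1 (0.0579) or KO replicate 3 (0.0531). A call with both agents was gained without WT replicate 2 (0.0426). TNFα and 7FTA gave no called change of RIPK1 in either genotype, with log2 changes between -0.09 and 0.07. The gene shares 5.63% of its exonic bases with the antisense gene AL031963.3, at a mean of 0.341 CPM.

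RIPK1 has 3 annotated starts, and the windows of the second and the third hold the same ISRE core. The window before the second start is shown for that match, from RefSeq's GRCh38.p14 table, plus strand, with the ISRE core, which reads on the opposite strand, in capitals. It lies 67 to 58 bases before that start and 183 to 174 bases before the third.
RIPK1, chr6:3068128-3068377: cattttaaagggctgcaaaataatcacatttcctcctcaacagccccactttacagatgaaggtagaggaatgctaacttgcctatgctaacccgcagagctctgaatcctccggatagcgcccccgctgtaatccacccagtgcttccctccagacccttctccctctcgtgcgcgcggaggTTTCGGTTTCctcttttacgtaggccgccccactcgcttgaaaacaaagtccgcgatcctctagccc

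RIPK3 (ENSG00000129465, chromosome 14, 24336021 to 24340045, minus strand) encodes the kinase that phosphorylates MLKL. Apart from ZBP1, it had the largest genotype difference of the tested members under each of the 4 treatments. With DMSO the WT libraries were at 2.31, 3.53 and 2.35 CPM (58, 67 and 63 reads) and the KO libraries at 4.21, 4.73 and 4.39 CPM (81, 94 and 108 reads). With 7FTA they were at 3.40, 3.35 and 3.26 CPM against 5.18, 4.48 and 5.08 CPM. No WT library reached the lowest KO library of the same treatment.

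With TNFα the WT libraries of RIPK3 were at 3.02, 3.11 and 2.06 CPM and the KO libraries at 6.21, 4.39 and 4.83 CPM. With both agents they were at 2.83, 2.97 and 4.13 CPM against 5.94, 6.05 and 6.53 CPM. All 12 KO libraries (4.21 to 6.53 CPM) lay above all 12 WT libraries (2.06 to 4.13 CPM), as for TRADD. In bulk RNA a larger share of cells with RIPK3 and more RIPK3 RNA per cell cannot be told apart.

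The KO minus WT difference of RIPK3 on the log2 scale was 0.73 ± 0.17 (SE) with DMSO (adjusted p = 0.000271) and 0.55 ± 0.16 with 7FTA (adjusted p = 0.00279). It was 0.91 ± 0.17 with TNFα (adjusted p = 1.66e-05) and 0.90 ± 0.16 with both agents (adjusted p = 5.03e-06). The folds were 1.66, 1.47, 1.88 and 1.86. Whether these differences depended on treatment was not resolved. The difference of TNFα changes between genotypes was 0.19 ± 0.24 without 7FTA (adjusted p = 0.822) and 0.34 ± 0.23 with it (adjusted p = 0.546). The difference of 7FTA changes between genotypes was -0.18 ± 0.23 without TNFα and -0.02 ± 0.24 with it, and neither was called.

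RIPK3 was not called for TNFα or 7FTA. The change nearest to a call was TNFα in KO cells with 7FTA, where the 3 libraries with both agents (5.94, 6.05 and 6.53 CPM) were above the 3 with 7FTA (5.18, 4.48 and 5.08 CPM). That log2 change was 0.33 ± 0.14 (adjusted p = 0.0698), and it passed when the 2 groups were fitted alone. With 7FTA the WT mean was 3.34 CPM against 2.73 CPM with DMSO, a log2 change of 0.32 ± 0.18 (adjusted p = 0.505). The 24 tested genes nearest to RIPK3 on chromosome 14 had a median KO minus WT difference of 0.11 to 0.28 (log2). RIPK3 shares 11.0% of its exonic bases with the overlapping gene AL096870.1 on the same strand, which had 0 reads in the table.

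Within libraries, the balance of RIPK3 to its partners moved with genotype. WT libraries held 4.23 to 8.51 RIPK3 reads per 100 RIPK1 reads and KO libraries 9.27 to 14.5. Per 100 MLKL reads, WT libraries held 5.47 to 11.2 RIPK3 reads and KO libraries 11.5 to 15.6. Neither ratio overlapped between the 12 WT and the 12 KO libraries. RIPK3 in CPM already separated these libraries, so the ratios are not a separate result. The share of other gene pairs with such a separation was not computed. The ratios of TNFRSF1A to TRADD and of TRADD to FADD were also computed, and in both the WT and KO libraries overlapped. TNFRSF1A reads per 100 TRADD reads reached 979 in a KO library, above the lowest WT library at 978. TRADD reads per 100 FADD reads were 12.9 in the lowest KO library, below the highest WT library at 13.2. A ratio within a library does not depend on how libraries are scaled, and it describes reads and not protein.

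**Figure D3:**
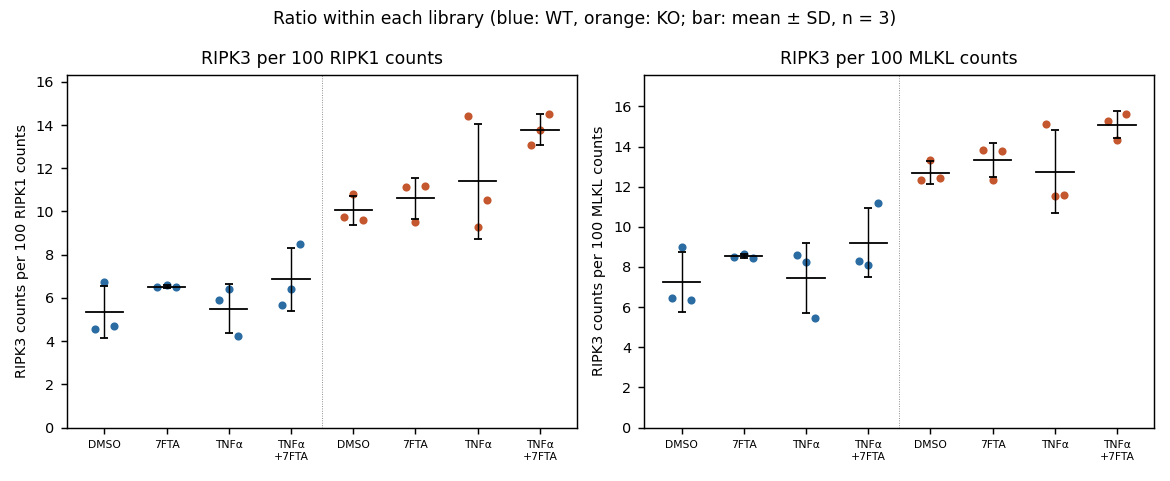
RIPK3 reads per 100 reads of RIPK1 (left) and per 100 reads of MLKL (right) within each library (vertical axes, linear, from 0) by treatment, WT in blue and KO in orange, bars mean ± SD of 3 libraries. KO libraries start at 9.27 and 11.5, above the highest WT libraries at 8.51 and 11.2.

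By the root mean square distance between centred log2 group means over the 8 groups, the genes nearest to RIPK3 were TRIM2 (0.0628), which encodes a ubiquitin ligase, PRSS8 (0.0896), which encodes the epithelial protease prostasin, and C11orf71 (0.101). The comparison ran over 11083 genes. In WT cells with DMSO and KO cells with both agents, TRIM2 had means of 13.4 and 30.2 CPM, PRSS8 23.4 and 45.7 CPM, and RIPK3 2.73 and 6.17 CPM. The points of such a profile share libraries, and likeness says nothing of shared function.

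MLKL (ENSG00000168404, chromosome 16, 74671855 to 74700960, minus strand) encodes the pseudokinase that permeabilises membranes. It rose with TNFα in KO cells and not in WT cells by the test, and the changes were small. In KO cells the libraries were at 34.2, 35.4 and 35.3 CPM with DMSO and at 41.1, 38.0 and 41.7 CPM with TNFα, without overlap. In WT cells they were at 35.7, 39.3 and 37.0 CPM with DMSO and at 35.0, 37.7 and 37.7 CPM with TNFα, with overlap. The log2 change was 0.21 ± 0.06 for KO cells (adjusted p = 0.00264), or 1.15-fold, and -0.02 ± 0.06 in WT cells (adjusted p = 0.844).

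With 7FTA present, MLKL in KO cells went from 37.5, 36.2 and 36.9 CPM to 38.9, 42.2 and 41.8 CPM with TNFα, again without overlap. In WT cells it went from 39.9, 38.7 and 38.7 CPM to 34.0, 36.6 and 36.9 CPM, with each TNFα library below each library without it. The log2 change was 0.15 ± 0.05 in the KO cells (adjusted p = 0.023), and in the WT cells it was -0.12 ± 0.06, which did not pass (adjusted p = 0.0798). The call in KO cells was lost in 5 of 11 alternatives, 4 of them leaving out 1 library: 7FTA replicate 2 (0.0827) or 3 (0.0542), or replicate 2 (0.103) or 3 (0.0751) with both agents.

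The difference between the TNFα changes of KO and WT cells was tested as an interaction. For MLKL it was 0.28 ± 0.08 with 7FTA present (adjusted p = 0.0351), the 1 interaction called for a member, where 2.56% of tested genes were called. Without 7FTA it was 0.22 ± 0.08 (adjusted p = 0.11), where no member and 3.55% of tested genes were called. With DMSO and with 7FTA the KO libraries of MLKL were below the WT libraries, by -0.09 ± 0.06 (adjusted p = 0.163) and -0.09 ± 0.05 (adjusted p = 0.18). With TNFα they were above them, by 0.13 ± 0.06 (adjusted p = 0.0469), and with both agents by 0.19 ± 0.05 (adjusted p = 0.00335). The call with TNFα alone was lost in 7 of 11 alternatives, among them DESeq2 and leaving out any library other than KO replicate 2, with adjusted p up to 0.217. The interaction call was lost in 10 of 17, with adjusted p up to 0.105.

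The MLKL promoter is printed because the gene rose with TNFα in KO cells. It comes from RefSeq's GRCh38.p14 table, minus strand, cut to the bases outside annotated exons. Its 250-base window holds none of the 3 motifs, so no base is in capitals.
MLKL, chr16:74700961-74701112: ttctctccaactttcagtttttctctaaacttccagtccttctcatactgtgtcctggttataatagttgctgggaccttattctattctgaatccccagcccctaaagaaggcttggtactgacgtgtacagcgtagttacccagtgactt

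For TNFα, 1 member was called in WT cells without 7FTA, 3 in KO cells without it, 1 in WT cells with it and 3 in KO cells with it, each of them upward. The shares of all tested genes called were 38.4%, 30.9%, 34% and 31.2%. Libraries did not overlap for 48%, 41.1%, 43.9% and 41.9% of tested genes in these comparisons. The members called were TNFRSF1A in all 4, and MLKL and ZBP1 in both comparisons of KO cells. The call of ZBP1 without 7FTA rests on the group that carried it through the filter and adds no support. The comparisons of KO with WT cells and of TNFα with DMSO share libraries, so a high KO TNFα group enters both.

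**Figure D4:**
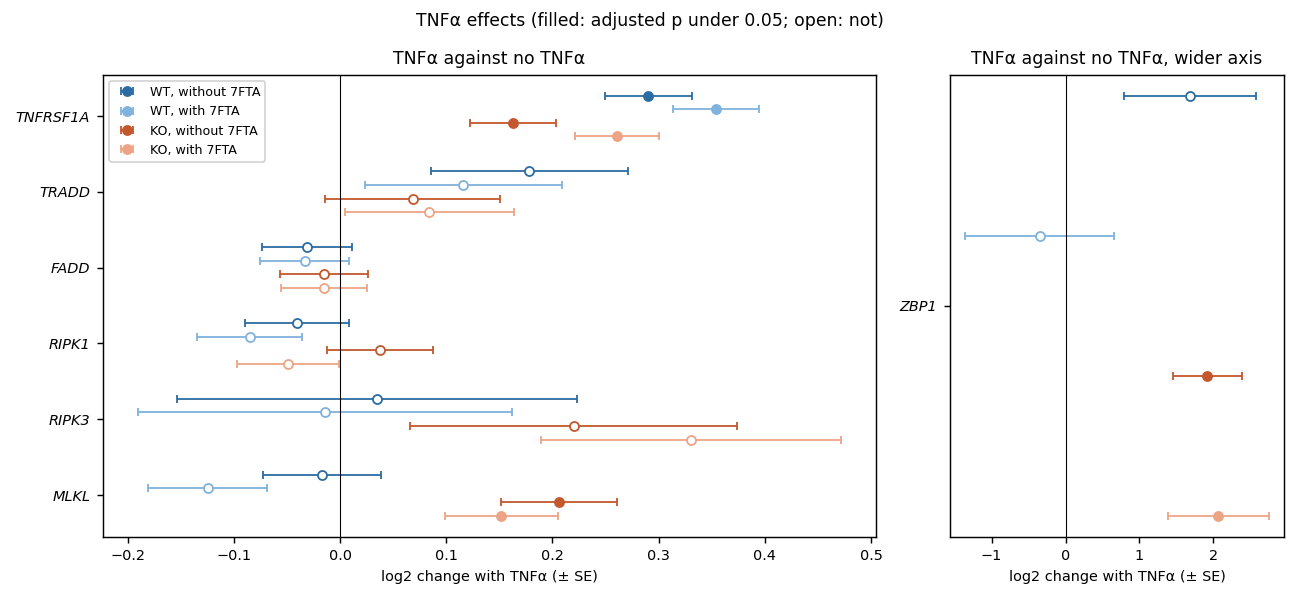
Change with TNFα (horizontal axis, log2, ± SE) for the 7 tested members in WT (blue) and KO (orange) cells, without 7FTA (dark) and with it (light), with ZBP1 on a wider axis. Filled points have an adjusted p under 0.05 and open points do not. TNFRSF1A is filled and above 0 in all 4, while MLKL is filled in the 2 comparisons of KO cells and below 0 in WT cells. The filled ZBP1 point of KO cells without 7FTA rests on the group that carried ZBP1 through the filter.

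ZBP1 (ENSG00000124256, chromosome 20, 57603846 to 57620576, minus strand) was nearly silent in WT cells and was highest in KO cells with TNFα. Its 24 libraries held 0 to 23 reads each and 127 in all, and 4 libraries held 0. In WT cells the 3 libraries held 2, 2 and 0 reads with DMSO, 2, 0 and 4 with 7FTA, 5, 4 and 1 with TNFα, and 1, 0 and 3 with both agents. In KO cells they held 4, 7 and 5 reads with DMSO, 2, 4 and 0 with 7FTA, 23, 17 and 18 with TNFα, and 8, 7 and 8 with both agents. The 3 KO libraries with TNFα were above the other 21. The 3 KO libraries with both agents, at 7 and 8 reads, came next together with 1 KO library with DMSO, at 7 reads.

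Summed over the 3 libraries, ZBP1 had 58 reads in KO and 10 reads in WT cells with TNFα, a depth-corrected ratio of 4.95 with a 95% counting interval of 2.51 to 10.9. Since the KO TNFα group alone carried ZBP1 through the filter, its genotype and TNFα tests with that group are given here without the filter. The log2 difference was then 2.29 (adjusted p = 0.000313). In KO cells TNFα raised it from 16 to 58 reads, a ratio of 3.84 (2.18 to 7.16) and, without the filter, a log2 change of 1.92 (adjusted p = 0.00183). These intervals cover counting error only.

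With both agents ZBP1 had 23 reads in KO and 4 in WT cells, a ratio of 4.65 (1.59 to 18.5), and the log2 difference of 2.13 ± 0.77 passed (adjusted p = 0.0182). Leaving out WT replicate 2 of that treatment raised the adjusted p to 0.124. With DMSO the sums were 16 and 4 reads, a ratio of 4.44 (1.43 to 18.3) and a log2 difference of 2.04 ± 0.81 (adjusted p = 0.0339), a call lost in 5 of 10 alternatives. These were DESeq2 (0.0641), no filter (0.0524) and leaving out WT replicate 1 (0.0504), WT replicate 3 (0.175) or KO replicate 2 (0.127). With 7FTA the sums were 6 and 6 reads and no difference was detectable (adjusted p = 0.819).

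With 7FTA present, ZBP1 in KO cells went from 6 reads without TNFα to 23 reads with it, a ratio of 4.44 (1.76 to 13.3) and a log2 change of 2.07 ± 0.69 (adjusted p = 0.0171). The adjusted p was 0.118 without 7FTA replicate 3, the library with 0 reads, and 0.0518 without replicate 3 of the other group. The TNFα change of ZBP1 in WT cells, from 4 to 10 reads, gave a ratio of 3.45 (0.994 to 15.1) and did not pass (adjusted p = 0.139). Whether TNFα acted more strongly on ZBP1 in KO cells could not be resolved. The interaction was 0.24 ± 1.66 without 7FTA (adjusted p = 0.98) and 2.42 ± 1.26 with it (adjusted p = 0.395). The first uses the group that carried ZBP1 through the filter, and without the filter it was 0.26 and not called.

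In comparisons of 7FTA, no member was called in WT or KO cells against DMSO, where 2.05% and 2.38% of tested genes were, nor in WT cells with TNFα, where 5.54% were. At an unadjusted p under 0.05 the edgeR counts were 0, 1 and 1 of 7, and DESeq2 called none of the members for which it gave an adjusted p. In KO cells with TNFα 1 member, ZBP1, was called, beside 7.52% of tested genes. It was at 23, 17 and 18 reads with TNFα and at 8, 7 and 8 reads with both agents, a ratio of 0.352 (0.207 to 0.579) and a log2 change of -1.49 ± 0.44 (adjusted p = 0.0235). The filter had already required the first of these groups to be high, and without it the change did not pass (adjusted p = 0.0537). The groups did not overlap, which was so for 21.6% of tested genes. The call held in 4 of 10 alternatives, and the adjusted p over them ran from 0.015 to 0.114. It was lost on leaving out TNFα replicate 1 (0.114) or 2 (0.0668), or any library with both agents (0.0521 to 0.0787). DESeq2 gave no adjusted p for it.

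The other values of ZBP1 with 7FTA were in WT cells with TNFα, 10 against 4 reads (adjusted p = 0.499), and in KO cells without TNFα, 16 against 6 reads, a log2 change of -1.64 ± 0.74 (adjusted p = 0.337). TNFRSF1A was at 118 to 125 CPM in WT cells with TNFα and at 129 to 133 CPM with both agents, without overlap, a log2 change of 0.11 ± 0.04 that did not pass (adjusted p = 0.103). Such a separation was found for 21.1% of tested genes. In KO cells the same change was 0.10 ± 0.04 with overlap (adjusted p = 0.149), and it passed without TNFα replicate 3 (adjusted p = 0.0252). For the other tested members the 95% intervals of the 7FTA changes lay within -0.21 and 0.67 on the log2 scale. No interaction of 7FTA with genotype was called for a member, where 0% and 0.064% of tested genes were called without and with TNFα, nor of 7FTA with TNFα, where 0.277% were called in WT and 0.576% in KO cells.

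The genes with a profile of group means nearest to that of ZBP1, over 11084 genes, were CMPK2 (distance 0.446), a mitochondrial nucleotide kinase, and MX2 (0.592) and MX1 (0.610), which encode interferon-induced antiviral GTPases. CMPK2 was at 1.90 CPM in WT cells with DMSO, 3.45 in WT cells with TNFα, 4.73 in KO cells with DMSO and 19.7 in KO cells with TNFα, and at 8.71 CPM when 7FTA was added to the last. MX1 stood at 7.81, 14.9, 20.2, 91.6 and 45.1 CPM in the same groups. These distances are larger than those of the genes nearest to RIPK3, and the ZBP1 profile rests on few reads.

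**Figure D5:**
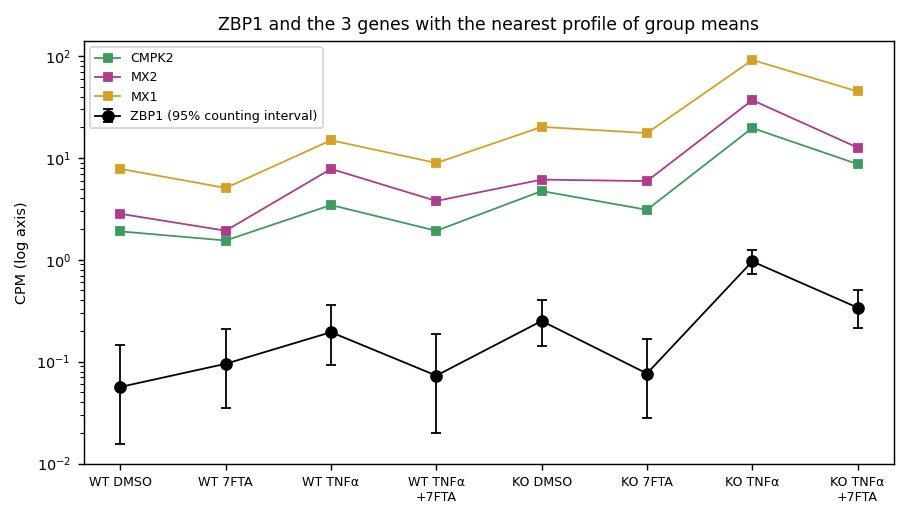
Level of ZBP1 (black, CPM of the summed reads of 3 libraries with its 95% counting interval) and group means of CMPK2, MX2 and MX1 (coloured) on a log axis of CPM, by group along the horizontal axis; the lines only join the values of a gene. All 4 genes are highest in KO cells with TNFα, where ZBP1 had 58 reads.

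Other genes of the pathway were described by 5 lists, which were chosen with earlier results of these data known. Of 24 tested partners of complex I (26 listed), TNFα raised 17 and lowered 1 in WT cells, and raised 11 and lowered 1 in KO cells, with median log2 changes of 0.26 and 0.15 against -0.01 for all tested genes in both. That is 18 and 12 of 24 called, where 38.4% and 30.9% of all tested genes were. BIRC3, which encodes the ubiquitin ligase cIAP2 that modifies RIPK1, rose by 4.82 ± 0.06 in WT cells (adjusted p = 2.58e-46) and 5.00 ± 0.06 in KO cells (adjusted p = 1.47e-47). TNFAIP3, the ubiquitin-editing enzyme A20, rose by 4.64 ± 0.11 and 4.47 ± 0.11, and its partner TNIP1 by 2.34 ± 0.04 and 2.32 ± 0.04. The receptor TNFRSF1A changed by 0.29 and 0.16 in the same comparisons. Between KO and WT cells with TNFα, 5 partners were higher and 10 lower, beside 50.6% of all tested genes called. TAB2, an adaptor of the kinase TAK1, was among the lower ones, at -0.74 ± 0.04 (adjusted p = 8.7e-21). BIRC3 was among the higher ones, at 0.41 ± 0.04 (adjusted p = 1.37e-11).

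Of 7 tested genes of complex II and the apoptotic arm, TNFα raised 4 and lowered 1 in WT cells and raised 5 and lowered 0 in KO cells, where 38.4% and 30.9% of all tested genes were called. The median log2 changes were 0.27 and 0.50. CFLAR, which encodes the caspase-8 inhibitor cFLIP, rose by 0.89 ± 0.05 in WT and 0.77 ± 0.05 in KO cells. CASP8, the protease that cleaves RIPK1 and RIPK3, rose by 0.29 ± 0.05 and 0.44 ± 0.05. With TNFα, CASP8 was higher in KO than in WT cells by 0.30 ± 0.05 (adjusted p = 2.29e-06) and CFLAR lower, at -0.31 ± 0.05 (adjusted p = 1.83e-07). Of the 7 genes 2 were higher and 2 lower in that comparison, a share near the 50.6% of all tested genes called, with a median of 0.12.

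Of 17 tested regulators of MLKL and genes of membrane repair, TNFα raised 5 and lowered 7 in WT cells, and raised 5 and lowered 4 in KO cells, where 38.4% and 30.9% of all tested genes were called. The median log2 changes were -0.03 and -0.05. SDCBP, which encodes syntenin-1, an adaptor in exosome formation, rose by 1.03 ± 0.03 and 1.21 ± 0.03. FLOT1, which encodes flotillin-1, changed by -0.49 ± 0.04 and -0.36 ± 0.04. Between KO and WT cells with TNFα, 6 were higher and 8 lower, beside 50.6% of all tested genes and with a median of 0.03. RAB27B, a GTPase of vesicle release, was higher by 1.63 ± 0.08 (adjusted p = 4.53e-22) and SDCBP was at -0.50 ± 0.03 (adjusted p = 9.54e-18).

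The 9 genes of the arm that joins Z-RNA and TLR3 to RIPK3, with factors of interferon signalling, included 6 raised and 1 lowered by TNFα in WT cells and 8 raised in KO cells, where 38.4% and 30.9% of all tested genes were called. The median log2 changes were 0.40 and 0.94. With TNFα, 7 were higher and 1 lower in KO than in WT cells, with a median log2 difference of 0.86 against 0.01 over all tested genes, of which 50.6% were called. EIF2AK2, which encodes the kinase PKR, was higher there by 0.86 ± 0.05, and ADAR, which edits double-stranded RNA and restrains ZBP1, by 0.50 ± 0.04. The TNFα change was larger in KO cells by test for 5 of the 9 and smaller for 0, beside 3.55% of all tested genes called, with interactions of 0.61 for EIF2AK2 (adjusted p = 6.52e-09) and 0.30 for ADAR (adjusted p = 0.00329). IRF1 rose in both genotypes, by 1.44 ± 0.05 and 1.55 ± 0.05, with an interaction of 0.11 without 7FTA (adjusted p = 0.583). With 7FTA its TNFα change was larger in KO cells by 0.32 (adjusted p = 0.0103).

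Of 7 tested genes for TNF ligands and the shedding of receptors, TNFα raised 5 and lowered 0 in each genotype, where 38.4% of all tested genes were called in WT and 30.9% in KO cells. The median log2 change was 0.86 in both. ADAM17, which encodes the sheddase that releases TNF receptors from the membrane, rose by 0.65 ± 0.05 in WT and 0.56 ± 0.05 in KO cells. Its cofactor RHBDF2 rose by 0.86 ± 0.06 in both. ERAP1, an aminopeptidase described as a promoter of TNFR1 shedding, rose by 1.17 ± 0.06 and 1.45 ± 0.05. Between KO and WT cells with TNFα, 4 were higher and 2 lower, beside 50.6% of all tested genes and with a median of 0.15. ERAP1 was higher by 0.91 ± 0.05 (adjusted p = 2.17e-20) and ADAM17 was at -0.25 ± 0.04 (adjusted p = 4.94e-06).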

How the data were processed

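Poly(A) RNA was sequenced as single-end reads in 24 libraries. Per the labels, the deposited table holds raw gene counts, and these counts were used as deposited after a check that they are whole numbers. Tools listed in the submitters' processing notes, with no step given, are DESeq2 1.20.0, featureCounts 1.6.4 and STAR 2.6.1d, and the build is GRCh38. The annotation release and strand setting are not given in the sources used here. All 24 columns were matched to samples by title.

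Genes were filtered with filterByExpr (minimum count 10, minimum total 15) and scaled with TMM. In edgeR 4.0.16 (R 4.3.3) 1 fit over the 24 libraries gave each group its own mean, and 18 contrasts (12 between groups, 6 interactions) were tested two-sided by the quasi-likelihood F test, with Benjamini-Hochberg adjustment over 14059 genes. An SE is the absolute log2 change divided by the square root of F. The script was tested on simulated data. Counting intervals are exact at 95%. Positions and exonic lengths come from GENCODE 29.

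The members and lists were chosen with earlier results of these data known. Named genes are the members, GPRC5A, per list up to 4 called genes with the smallest p for TNFα in WT cells and up to 2 for KO against WT with TNFα, and the 3 nearest profiles of each member whose group means span at least 1 log2 unit, among genes with a mean log2 CPM of at least 1. The text gives values for a selection of the list genes, and 1 that the rule names is not reported here. Alternatives were DESeq2 1.42.0, RLE factors, no filter, a replicate block, the compared groups alone and each library left out. In 24 pairs of libraries within groups, the chi-square per degree of freedom of 2.07 to 6.63 gave no sign of a library deposited in duplicate.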

Additional observations from a re-analysis of the deposited data

Results flagged for a closer look

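The TNFα change of MLKL in the presence of 7FTA differed between genotypes by 0.28 on the log2 scale (SE 0.08), with a change of 0.15 in KO and -0.12 in WT cells. It was drawn out because the difference itself passed edgeR's interaction test (adjusted p = 0.0351). All 3 KO libraries with TNFα were above the 3 without it and all 3 WT libraries were below. Libraries did not overlap for 41.9% of tested genes in this KO comparison and for 43.9% in the WT one. The same libraries gave the interaction call, so their separation adds no support to it. Over 17 alternatives the difference ran from 0.25 to 0.31 and kept its sign, while the adjusted p ran from 0.0196 to 0.105 and passed in 7. The call was lost without the filter, with the compared groups alone, and on leaving out replicate 1 or 3 of WT cells with 7FTA, any of the 3 of KO cells with 7FTA, replicate 1 of WT cells with both agents, or replicate 2 or 3 of KO cells with both agents.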

How the results depend on the processing

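Of 126 tests of a member, 30 were called, and 17 of these were called under every alternative that gave an adjusted p, among them TRADD and RIPK3 in all 4 genotype comparisons. Over the 18 comparisons the share of all tested genes called ran from 0% to 51.9%, so the 30 have to be read against these shares. ZBP1's calls against the KO TNFα group are among the 30, and those for genotype and for TNFα are also among the 17. They add no support, since that group carried ZBP1 through the filter. None of the 30 changed sign in an alternative. A further 3 were called in an alternative only. Of the 93 never called, 38 changed sign somewhere. The number of members called moved by more than 1.5 times as follows; the cause was not tested. For both agents against TNFα in KO cells it went from 1 to 0 with DESeq2, where ZBP1 had no adjusted p, and to 0 without the filter. For the interaction of genotype and TNFα with 7FTA it went from 1 to 0 without the filter and to 0 with the compared groups alone. For KO against WT with both agents it went from 5 to 3 with the compared groups alone.

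With 1 library left out, the members called ranged from 3 to 6 for KO against WT with TNFα (3 without KO replicate 3), from 1 to 3 for TNFα in KO cells with 7FTA (1 without replicate 3 of either group), from 0 to 2 for both agents against TNFα in KO cells (0 without each library in turn, other than KO TNFα replicate 3, which gave 2), and from 0 to 1 for the interaction. Replicate numbers showed no clear pairing of the libraries: same-numbered deviations correlated at -0.061 to 0.103 over 28 pairs of groups. With the replicate number as a block, the members called were the same in number in all 18 comparisons, with 6, 3, 6 and 5 for genotype. Over all genes the block lowered the number called in no comparison. It gave 431 against 288 for 7FTA against DMSO in WT cells, and 1371 against 1057 for both agents against TNFα in KO cells. Whether a weak pairing exists was not tested.

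Counts over all genes moved more for weak effects. For 7FTA against DMSO they were 288 in WT cells (182 to 431 over the alternatives) and 335 in KO cells (196 to 472), and for both agents against TNFα 779 (501 to 975) and 1057 (659 to 1371). For the interaction of genotype and TNFα with 7FTA they were 360 (224 to 527), of genotype and 7FTA 0 (0 to 1) without and 9 (0 to 24) with TNFα, and of 7FTA and TNFα 39 (23 to 65) in WT and 81 (49 to 158) in KO cells. Depth limits TNFRSF1B and ZBP1, whose group sums were 4 to 58 reads, and RIPK3 with 34 to 145 reads a library. 3 libraries a group leave changes near 0.1 (log2), such as those of FADD, at the edge of the threshold.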
